A study of Solanum lycopersicum with 3 samples.

Results

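Ripe tomato fruit was compared between Lycb-1 plants and the wild type (WT) for the genes of the abscisic acid (ABA) response: the enzymes of ABA synthesis, the abscisic stress-ripening (ASR) proteins, the late embryogenesis abundant (LEA) proteins, and the dehydration-responsive factors. The probes were taken by the words of their descriptions in the array files (abscisic or ABA, epoxycarotenoid, aldehyde oxidase, late embryogenesis or LEA, dehydrin, and dehydration-responsive, dehydration-induced or desiccation), leaving out descriptions with CYP707A1, kinase or protease. This gave 38 of the 11863 gene probes on the array, under 25 protein accessions, 9 of which had several probes. The words search descriptions, not expression values, though earlier results of these data were known when they were chosen. No probe carried the word dehydrin, so this class is not represented by any description. The 38 probes fell into ABA synthesis (8), ASR (3), LEA (6), dehydration (9) and other ABA response (12).

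ABA is made from carotenoids. Zeaxanthin is epoxidised, the 9-cis epoxycarotenoids are cleaved by 9-cis-epoxycarotenoid dioxygenase (NCED), and an aldehyde oxidase makes ABA from abscisic aldehyde. The hormone is sensed through receptors that inhibit protein phosphatases of type 2C, which frees SNF1-related kinases to switch on a set of genes. ASR and LEA proteins are small hydrophilic proteins found in tissues that ripen or lose water, and in tomato ABA has been linked to ripening.

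Lycb-1 is a line of cultivar Zhongshu No. 5 that carries a citrus lycopene β-cyclase gene behind the constitutive CaMV 35S promoter together with the kanamycin resistance gene nptII; WT is the untransformed cultivar. Each of the 3 TOM2 long-oligonucleotide arrays held 1 pool of deseeded ripe fruit of Lycb-1, labelled with Cy5, and 1 pool of WT, labelled with Cy3, and the arrays are named here by their replicate numbers. The dyes were exchanged on 0 arrays and the line descends from 1 transformant, so a dye effect, an effect of that line and an effect of the transgene cannot be told apart. In such bulk RNA, fewer cells of a type and less RNA per cell cannot be told apart either.

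A log2 ratio is Lycb-1 over WT after print-tip loess, averaged over 3 arrays, with the SE of limma's moderated fit. The test ran over 5720 probes whose brighter channel reached 400 on all 3 arrays, and p-values were adjusted over all of them by the Benjamini-Hochberg method. The nptII probe (X57709) averaged 6.80 ± 0.46 (adjusted p = 0.045), with 6.76, 7.99 and 5.65 on replicates 1, 2 and 3, and its WT channel was dim, so that Lycb-1 was at least 15.7-fold higher. The lycopene β-cyclase probe (SGN-U221920) averaged 3.08 ± 0.20 (adjusted p = 0.045). The WT channel of SGN-U221920 was below 400 on 2 arrays. Both probes were thus higher in the channel labelled Lycb-1. Whether SGN-U221920 reads the citrus transcript, the tomato gene or both was not tested. The 99th percentile of empty spots lay at 10 to 15 (Cy5) and 27 to 34 (Cy3). In all, 3 of the 5720 probes (0.0524%) passed an adjusted p of 0.05.

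Of the 38 probes, 16 (15 accessions) passed the signal limit and were tested, and 0 of the 16 passed an adjusted p of 0.05 in limma, beside 0.0524% of all probes; the lowest adjusted p was 0.277. At an unadjusted p of 0.05, 2 of the 16 passed (12.5%), beside 15.4% of all probes. Of these, a LEA-like probe was higher in Lycb-1 (1 of 16, beside 6.82% of all probes) and a probe for a dehydration-responsive element-binding (DREB) protein was lower (1 of 16, beside 8.62%). The median log2 ratio of the 16 was -0.01, the same to 2 decimals as that of all tested probes, and the means ran from -0.77 to 0.74, so that none reached a log2 ratio of 1 (2.52% of all tested probes) or -1 (3.76%). Lycb-1 was higher on all 3 arrays for 2 probes (12.5%; 20.4% of all tested probes) and lower on all 3 for 1 (6.25%; 21.3% of all), so that 3 kept their direction (41.7% of all) and 13 changed sign between arrays. The 95% interval of the difference, not adjusted for the number of probes, lay within a log2 ratio of -1 and 1 for 9 of the 16 probes. These intervals hold for print-tip loess only. The probes of ASR1 and ASR3 are among the 9, but averaged 1.06 and 1.02 with each array centred on its median instead. In addition, the Cy5 signal of ASR1 stood at the top of its scale on replicates 2 and 3. For the other 7 the interval reaches past a change of 2-fold in at least 1 direction, so that a change of this size was not resolved with 3 arrays.

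**Figure D1:**
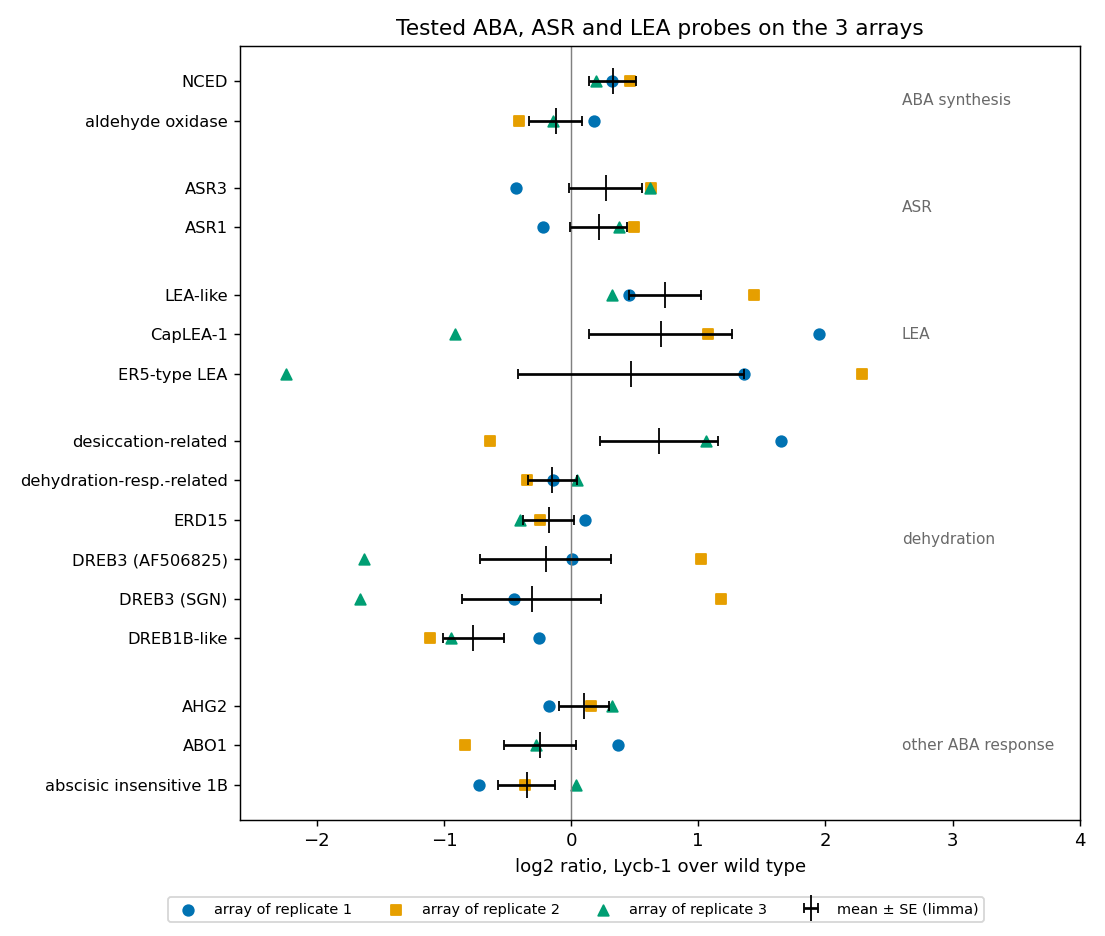
Log2 ratio of Lycb-1 over WT for the 16 tested probes (rows, grouped by role) on each of the 3 arrays (coloured symbols), with the mean and the SE of limma's fit (black). NCED and the LEA-like probe lie to the right of 0 on all 3 arrays and the DREB1B-like probe to the left on all 3, while the ER5-type LEA probe spans -2.24 to 2.29.

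Of the 2 tested probes for ABA synthesis, that of NCED was the more even between arrays. NCED catalyses the step that commits carotenoids to ABA, and its probe SGN-U214605 had normalised signals of 2965, 1361 and 1047 in Lycb-1, against 2369, 988 and 915 in WT, on replicates 1, 2 and 3. Lycb-1 was the higher channel of each array, by log2 ratios of 0.32, 0.46 and 0.19, but the ranges of the genotypes overlap because both channels were brightest on replicate 1. The mean was 0.33 ± 0.18 (limma, adjusted p = 0.432), with a 95% interval of -0.14 to 0.79, and it lay between 0.26 and 0.39 with any 1 array left out. A second probe of the same description, AJ439079, was not tested: its deposited intensities were 13, 27 and 12 in Lycb-1, against 7, 20 and 39 in WT. These are at or near the level of empty spots in both genotypes.

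Aldehyde oxidase, the enzyme type of the last step to ABA, had 6 probes, and 1 of them was tested. The 6 are annotated with different Arabidopsis loci, and their descriptions do not say which of them acts on abscisic aldehyde. The tested probe can therefore not be taken as a reading of that step. SGN-U213961 had signals of 4543, 3698 and 4727 in Lycb-1, against 4003, 4917 and 5205 in WT, and its log2 ratios of 0.18, -0.41 and -0.14 changed sign between arrays. The mean was -0.12 ± 0.21 (limma, adjusted p = 0.804) with an interval of -0.65 to 0.41. Of the other 5 probes, SGN-U213958 was the brightest, with deposited intensities of 360, 302 and 584 in Lycb-1, against 302, 198 and 396 in WT. In this probe Lycb-1 was the brighter channel of every array before any normalisation, and the remaining 4 stayed at 66 or below in Lycb-1 and at 119 or below in WT.

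The ASR probes were among the brightest spots of the arrays. ASR proteins bind DNA and zinc and accumulate in tomato in ripening fruit and under water stress. ASR1 (SGN-U213101) had normalised signals of 49598, 63523 and 53397 in Lycb-1, against 57739, 45082 and 41196 in WT. Lycb-1 was therefore lower on replicate 1 and higher on replicates 2 and 3, with log2 ratios of -0.22, 0.49 and 0.37 and a mean of 0.22 ± 0.22 (limma, adjusted p = 0.666; 0.53 with the deposited ratio). ASR3 (SGN-U213099) had 28457, 36961 and 31943 in Lycb-1, against 38520, 23870 and 20795 in WT. Its log2 ratios of -0.44, 0.63 and 0.62 followed the same order of arrays, with a mean of 0.27 ± 0.28 (limma, adjusted p = 0.670). The third ASR probe of the list, SGN-U213100, described as ASR1 as well, was at 5, 5 and -1 in Lycb-1, against 10, 16 and 10 in WT, which is within the range of empty spots.

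How bright the ASR spots are bears on their ratios in 2 measured ways. First, the deposited Cy5 intensity of ASR1 (SGN-U213101) was 96.3%, 99.98% and 99.97% of the highest Cy5 value on replicates 1, 2 and 3, where 15, 17 and 9 spots lay within 1% of that value, against 85.0%, 60.7% and 67.2% of the highest value in Cy3. The Lycb-1 channel of this probe thus stood at the top of its scale on 2 arrays, and a higher level may not have been recorded there. ASR3 stayed between 54.4% and 56.6% of the highest Cy5 value. Second, with the ratios of each array centred on their median in place of the loess, ASR1 averaged 1.06 (adjusted p = 0.134) and ASR3 1.02 (adjusted p = 0.165), Lycb-1 was higher on all 3 arrays for both, and the median of all tested probes moved to 0.15. Neither probe passed the threshold under either normalisation, and the size of the ASR ratios depends on the correction for signal-dependent dye differences.

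Further probes named ASR lie outside the list because their descriptions give the symbol alone, and they were looked at after their values were seen. ASR4 had means of 0.40 ± 0.25 (SGN-U213104; -0.08, 0.88 and 0.40 on replicates 1, 2 and 3) and 0.14 ± 0.19 (SGN-U213103; -0.10, 0.32 and 0.18). An ASR1 probe annotated from Lycopersicon cheesmaniae, SGN-U232308, had signals of 39287, 57234 and 47130 in Lycb-1, against 37267, 23987 and 25644 in WT. Its mean was 0.74 ± 0.28 (limma, adjusted p = 0.316), with 0.08, 1.25 and 0.88 on the 3 arrays. All 5 tested ASR probes had their lowest ratio on replicate 1 and their highest on replicate 2. Members of this family are alike in sequence, and how far the probes share signal was not tested.

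**Figure D2:**
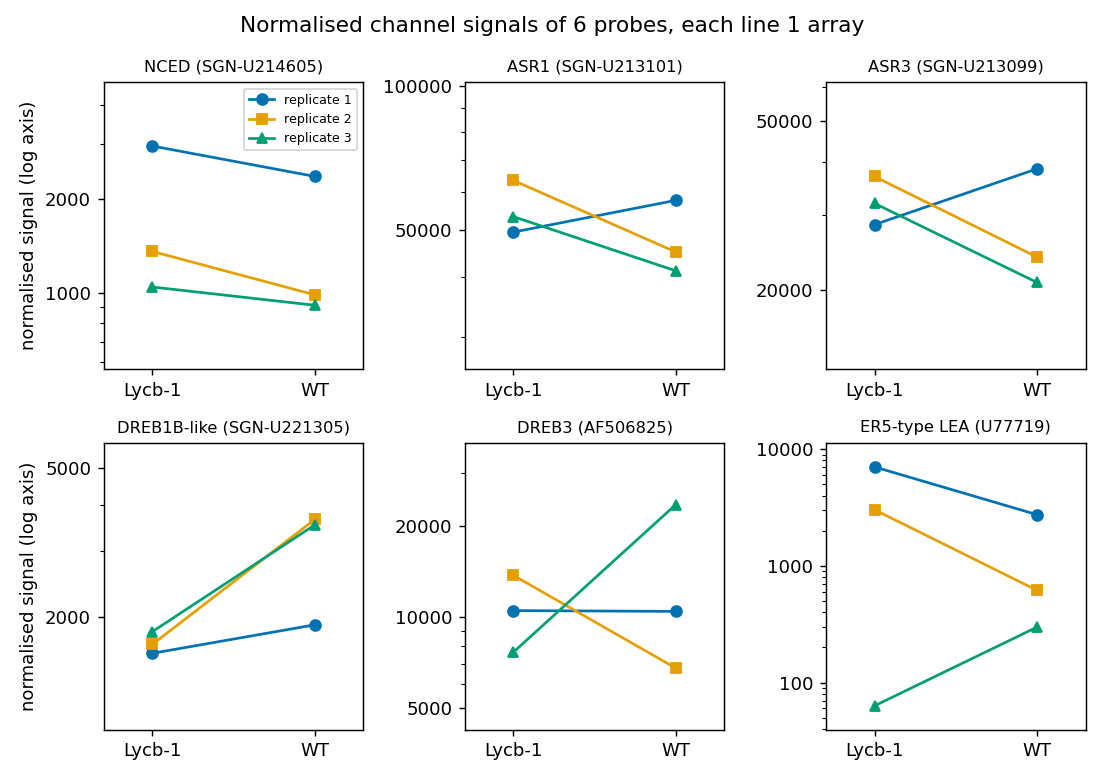
Normalised signal (log axis) of 6 probes in Lycb-1 and in WT; each line joins the channels of 1 array. Both genotypes are brightest on replicate 1 for NCED and the ER5-type LEA probe, the ASR lines cross, and for the DREB1B-like probe all 3 Lycb-1 signals (1601 to 1830) lie below the 3 WT signals (1908 to 3649).

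LEA proteins protect other proteins and membranes in drying seeds and water-stressed tissue. The LEA-like probe SGN-U214534 had signals of 1990, 776 and 679 in Lycb-1, against 1454, 287 and 543 in WT. Lycb-1 was higher on each array, with log2 ratios of 0.45, 1.44 and 0.32, and the largest of these was on replicate 2, where the WT channel was below the limit of 400. The mean was 0.74 ± 0.28 (limma, adjusted p = 0.318) with an interval of 0.01 to 1.46. It was 0.39 without replicate 2.

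The other tested LEA probes changed direction between arrays. U77719 stands for ER5, a LEA-like gene of tomato whose description calls it ethylene-responsive. It had signals of 7050, 3027 and 63 in Lycb-1, against 2749, 618 and 298 in WT, so that both genotypes were brightest on replicate 1 and dimmest on replicate 3. Lycb-1 was higher on replicates 1 and 2 and lower on replicate 3, by log2 ratios of 1.36, 2.29 and -2.24, and the mean of 0.47 ± 0.89 (limma, adjusted p = 0.828) had an interval of -1.80 to 2.74. The mean became 1.83 without replicate 3 and -0.44 without replicate 2. Its Lycb-1 channel on replicate 3 was below 400.

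The 2 untested probes of the same protein accession were also brightest on replicate 1 in both genotypes, and dimmest on replicate 3 in Lycb-1. SGN-U214303 had deposited intensities of 3891, 799 and -10 in Lycb-1, against 1084, -2 and 18 in WT, and SGN-U214304 had 3636, 1241 and 27 in Lycb-1, against 821, 239 and 203 in WT. The ER5 signal of the Lycb-1 pools thus varied between arrays from the brighter part of the range to near the level of empty spots, on 3 separate spots. Since the 3 spots read the same RNA pools, they are not separate evidence for the genotype. CapLEA-1 (SGN-U213276), a LEA protein described from pepper, had signals of 2146, 3214 and 414 in Lycb-1, against 554, 1521 and 780 in WT. Lycb-1 was again higher on replicates 1 and 2 (log2 ratios of 1.95 and 1.08) and lower on replicate 3 (-0.92), with a mean of 0.71 ± 0.56 (limma, adjusted p = 0.578) that lay between 0.082 and 1.52 with 1 array left out. The remaining LEA probe, SGN-U222342, did not exceed 7 in Lycb-1 and 30 in WT.

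Because LEA genes are strongly expressed in seeds, seed markers were read on the same arrays. Of 9 probes with seed words in their descriptions, 3 were tested. The summed deposited intensity of the 9 was 25794, 21710 and 17639 in Lycb-1, against 13349, 16850 and 20666 in WT, on replicates 1, 2 and 3. The sum, of intensities before normalisation, was higher in Lycb-1 on replicates 1 and 2 and lower on replicate 3, as were ER5 and CapLEA-1. This order came from adding probes that differ, and none of the 3 tested seed probes had it. In deposited intensity, the steroleosin probe was brighter in Lycb-1 on every array, and the other tested probes only on replicate 1. Defining storage proteins were dim: 1 legumin-like probe (SGN-U213070) did not exceed 16 in either genotype, and the 2 others reached at most 297 in Lycb-1 and 438 in WT. A steroleosin probe (SGN-U216554), for an oil-body protein, averaged 1.68 (limma, adjusted p = 0.249). The other tested probes, both described as protease inhibitor, seed storage or lipid transfer proteins, averaged -1.45 (SGN-U218425; limma, adjusted p = 0.269) and -0.54 (SGN-U221589; limma, adjusted p = 0.377). Probes of other tissues were read by description too. Of 24 tested ripe-fruit probes, Lycb-1 was higher on all 3 arrays for 12 (50%; 20.4% of all tested probes) and lower for 3 (12.5%; 21.3% of all). It was lower on all 3 for 4 of 9 cuticle probes (44.4%) and higher for 0. Of 4 chlorophyll a/b-binding probes, it was lower on all 3 for 3 (75%) and higher for 1 (25%). None passed an adjusted p of 0.05 in limma. The part of seed or other tissue in the ratios was not tested.

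The DREB1B-like probe SGN-U221305 had the lowest mean of the 16 tested probes. DREB proteins are transcription factors that bind the dehydration-responsive element of cold- and drought-induced genes, and the name of this probe comes from a castor bean protein marked as putative. It had signals of 1601, 1692 and 1830 in Lycb-1, against 1908, 3649 and 3528 in WT. The 3 Lycb-1 signals lay below the 3 WT signals, as for 8.81% of all tested probes, and the WT signals varied more than the Lycb-1 signals. Log2 ratios were -0.25, -1.11 and -0.95, and the mean was -0.77 ± 0.24 (limma, adjusted p = 0.277) with an interval of -1.39 to -0.15. With 1 array left out, the mean lay between -1.03 and -0.60. No other tested probe of the list had signals that separated the genotypes, and 0 of 16 had all Lycb-1 signals above all WT signals (7.57% of all tested probes).

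Further DREB probes lie outside the list because their descriptions spell dehydration responsive without a hyphen, and they were looked at after their values were seen. AF500012, a tomato DREB protein, had signals of 666, 1144 and 1300 in Lycb-1, against 1493, 3725 and 3820 in WT, so that the genotypes did not overlap and Lycb-1 was lower on every array. Its log2 ratios were -1.16, -1.70 and -1.55, with a mean of -1.47 ± 0.20 (limma, adjusted p = 0.141) and an interval of -1.99 to -0.95. This is further from 0 than any probe of the list, and it did not pass the threshold in the fit reported or in any alternative run (adjusted p of 0.084 to 0.532). SGN-U223608, named from a cotton DREB protein, had a mean of 0.19 ± 0.19 (limma, adjusted p = 0.656) with 0.40, 0.12 and 0.05 on the 3 arrays.

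DREB3 was measured by 2 probes, and they gave the same picture of opposite arrays. AF506825 had signals of 10508, 13755 and 7652 in Lycb-1, against 10445, 6771 and 23613 in WT, and SGN-U213279 had 9323, 13144 and 4244 in Lycb-1, against 12756, 5821 and 13375 in WT. In both, WT was dimmest on replicate 2 and Lycb-1 was dimmest on replicate 3. The log2 ratios were thus 1.02 and 1.18 on replicate 2, and -1.63 and -1.66 on replicate 3. The means of -0.20 ± 0.52 (adjusted p = 0.874) and -0.31 ± 0.54 (adjusted p = 0.813) in limma's fit thus average arrays of opposite sign. Without replicate 3 they were 0.52 and 0.36.

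Among the other dehydration probes, the desiccation-related protein SGN-U222332, named from Lindernia brevidens, had signals of 830, 1357 and 1694 in Lycb-1, against 264, 2110 and 814 in WT. Its log2 ratios were 1.65, -0.64 and 1.06, with replicate 2 opposed to the others, and the mean was 0.69 ± 0.47 (limma, adjusted p = 0.509). ERD15 (SGN-U213519), a small protein that in Arabidopsis holds back ABA responses, had log2 ratios of 0.11, -0.24 and -0.40 and a mean of -0.18 ± 0.20 (limma, adjusted p = 0.691). The dehydration-responsive protein-related probe SGN-U219499 had -0.15, -0.34 and 0.05 and a mean of -0.15 ± 0.19 (limma, adjusted p = 0.737). Both of these varied little between arrays beside DREB3, and their 95% intervals lay within a log2 ratio of -1 and 1. Another ERD15 probe, SGN-U214024, named from pepper, lies outside the list, in the wider set described below, and varied more. It had log2 ratios of 0.08, -2.22 and -0.23 and a mean of -0.79 ± 0.49 (limma, adjusted p = 0.471). Its 95% interval ran from -2.04 to 0.45. The probe SGN-U217045, named from a castor bean RD22 protein marked as putative, did not exceed 5 in Lycb-1 and 9 in WT.

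The 3 other tested probes of ABA response did not pass the test either. Abscisic insensitive 1B (SGN-U221944), named from poplar after the Arabidopsis phosphatase that restrains ABA signalling, had signals of 894, 534 and 447 in Lycb-1, against 1480, 686 and 435 in WT. Lycb-1 was lower on replicates 1 and 2 and close to WT on replicate 3 (log2 ratios of -0.73, -0.36 and 0.04), with a mean of -0.35 ± 0.22 (limma, adjusted p = 0.489). ABO1 (SGN-U227770), in Arabidopsis a subunit of the Elongator complex, had log2 ratios of 0.37, -0.84 and -0.28. AHG2 (SGN-U228097), in Arabidopsis a ribonuclease that shortens poly(A) tails, had -0.17, 0.16 and 0.32. The means of -0.25 ± 0.28 for ABO1 and 0.10 ± 0.20 for AHG2 were within their errors of 0, and both probes changed sign between arrays.

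**Figure D3:**
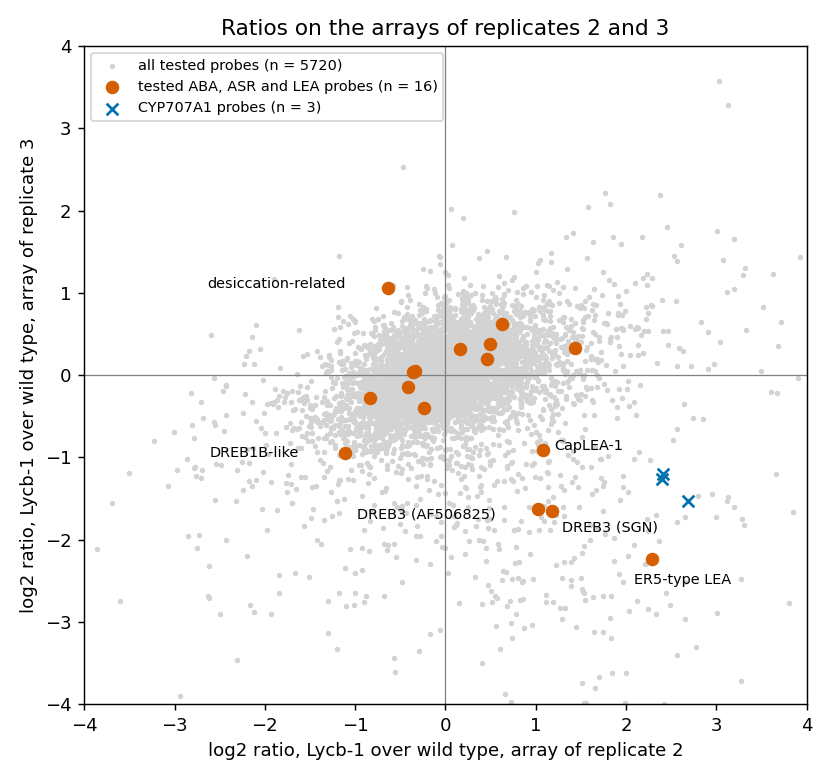
Log2 ratio of Lycb-1 over WT on replicate 2 (x axis) against replicate 3 (y axis) for all 5720 tested probes (grey; 35 lie outside the axes), the 16 tested ABA, ASR and LEA probes (orange) and 3 CYP707A1 probes (blue crosses). The ER5-type LEA, DREB3 and CapLEA-1 probes lie at the lower right, higher in Lycb-1 on replicate 2 and lower on replicate 3, as do the CYP707A1 probes.

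The arrays of replicates 2 and 3 were the least alike pair in this group of genes, as they were over all tested probes. Over the 16 tested probes, Pearson's r of the log2 ratios was 0.28 between replicates 1 and 2, -0.11 between replicates 1 and 3 and -0.49 between replicates 2 and 3. Over all 5720 tested probes the same values were 0.38, 0.30 and 0.16. These are descriptions across probes, which share arrays and in part the same transcript, and are not independent. The sign on replicate 2 was opposite to that on replicate 3 for 7 of the 16 probes (43.8%), beside 38.4% of all tested probes. The median log2 ratio of the 16 was 0.31 on replicate 2 and -0.05 on replicate 3, beside -0.0047 and -0.022 for all tested probes.

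Probes of ABA 8'-hydroxylase, the enzyme that breaks ABA down, had the same contrast between arrays. The 3 tested CYP707A1 probes averaged 0.22, 0.35 and 0.40, with 2.40 to 2.68 on replicate 2 and -1.53 to -1.20 on replicate 3. The brightest, SGN-U213423, had signals of 9086, 9647 and 3261 in Lycb-1, against 9683, 1831 and 7815 in WT, dimmest in WT on replicate 2 and in Lycb-1 on replicate 3, the order seen in DREB3. A further ABA 8'-hydroxylase probe whose description lacks that symbol, SGN-U237910, belongs to the list and was not tested; it had deposited intensities of 271, 1050 and 731 in Lycb-1, against 321, 532 and 1528 in WT.

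The 22 untested probes were mostly too dim to compare. In 15 of them both channels were below 400 on all 3 arrays, and 11 had both channels above the 99th percentile of empty spots on every array. The 4 probes for ABA-induced MYB transcription factors reached at most 266 in Lycb-1 and 489 in WT. The 2 GRAM domain probes described as ABA-responsive reached at most 251 in Lycb-1 and 466 in WT. A probe described as the Arabidopsis ABA repressor ABR1 (SGN-U230292) and the second ABO1 probe (SGN-U228284) did not exceed 9 in Lycb-1 and 34 in WT. Of the 2 untested dehydration-responsive protein-related probes, SGN-U227213 had 224, 366 and 744 in Lycb-1, against 540, 365 and 718 in WT, and SGN-U222268 stayed at 345 or below in both genotypes.

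**Figure D4:**
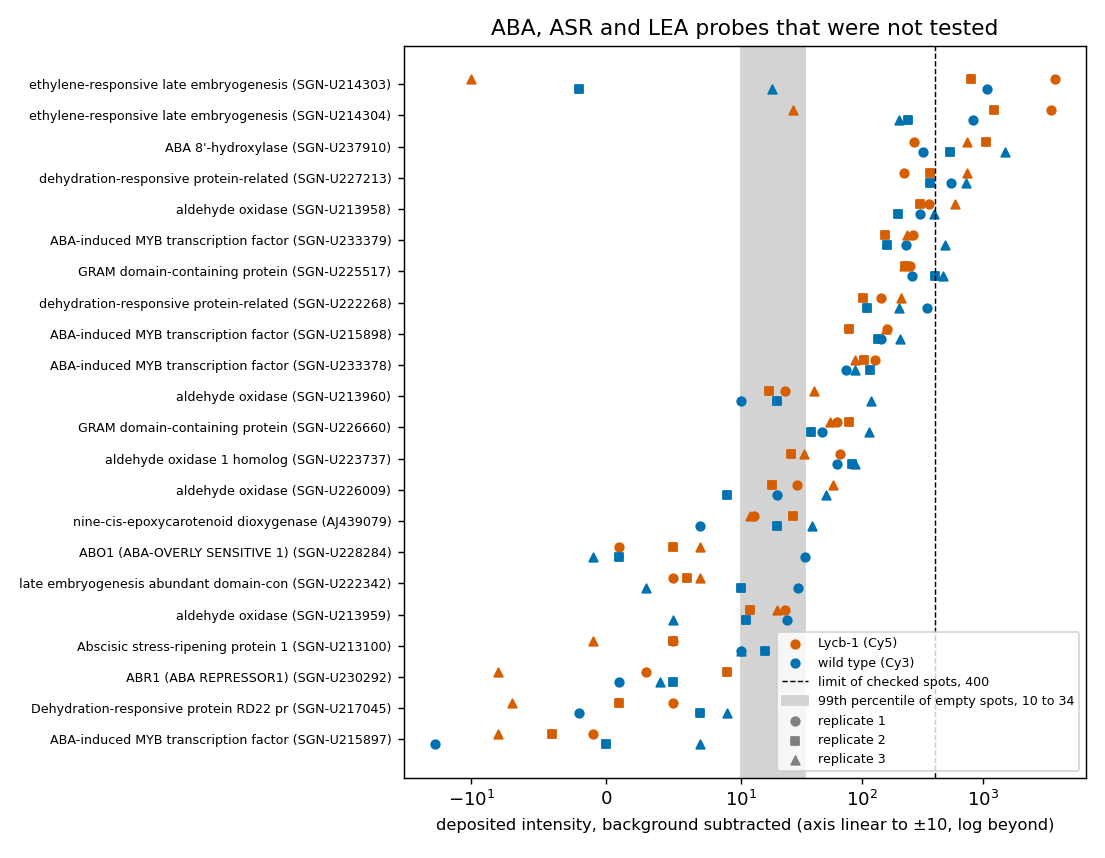
Deposited background-subtracted intensity (x axis, linear to 10 and logarithmic beyond) of the 22 untested probes (rows) in Lycb-1 (orange) and in WT (blue), 1 symbol per array. The dashed line is the limit of 400 and the grey band the 99th percentiles of empty spots (10 to 34); the 2 ER5-type LEA probes run from 3891 and 3636 in Lycb-1 to the band or below it.

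The genes around this list were read from a wider set of descriptions: carotenoid steps before NCED, type 2C phosphatases, SNF1-related kinases, 14-3-3 proteins, osmotins, ERD and drought proteins, cold-induced proteins, remorins, HVA22 and CYP707A1. Of 92 such probes, 57 were tested and 0 passed an adjusted p of 0.05 (limma; lowest 0.244), beside 0.0524% of all probes; 7 (12.3%) had an unadjusted p under 0.05, beside 15.4%. The median log2 ratio was -0.01. Lycb-1 was lower on all 3 arrays for 16 of the 57 (28.1%; 21.3% of all tested probes) and higher on all 3 for 3 (5.26%; 20.4% of all). Zeaxanthin epoxidase, which makes the epoxycarotenoids that NCED cleaves, had 2 tested probes. SGN-U221254 had log2 ratios of -2.57, -1.90 and -0.35 and a mean of -1.61 ± 0.45 (limma, adjusted p = 0.251), and Z83835 had -3.18, -1.12 and -0.02 and a mean of -1.44 ± 0.61 (limma, adjusted p = 0.345). Both were lower in Lycb-1 on every array, most on replicate 1 and least on replicate 3. The Lycb-1 channel of Z83835 was below 400 on 2 of the 3 arrays.

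In the other groups of the wider set, both osmotin-like probes, for proteins made under osmotic stress and pathogen attack, had lower Lycb-1 signals on every array, with means of -1.05 (SGN-U213934) and -0.95 (SGN-U212927) and adjusted p-values of 0.272 and 0.276 in limma's fit. The Lycb-1 channel of SGN-U213934 was below 400 on 2 of the 3 arrays. An ERD4 probe (SGN-U221790), for an early-responsive to dehydration protein, averaged -1.23 ± 0.33 (limma, adjusted p = 0.244), lower on all 3 arrays as well. Over the 24 tested phosphatase probes the median was 0.03. Lycb-1 was lower on every array for 5 of them (20.8%, beside 21.3% of all tested probes). It was higher on every array for 0, beside 20.4% of all tested probes. An SNF1-related kinase probe (SGN-U218864) averaged 1.12 ± 0.37 (limma, adjusted p = 0.284) and lay above 0 on every array. Another probe for such a kinase (SGN-U216124) averaged -0.08 ± 0.24 (limma, adjusted p = 0.894) and changed sign between arrays. A probe for a protein that interacts with such kinases (SGN-U214769) averaged 0.40 ± 0.21 (limma, adjusted p = 0.413), above 0 on every array. The descriptions do not say whether these kinases are the ones freed in ABA signalling. None of these values passed the test over all probes.

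**Figure D5:**
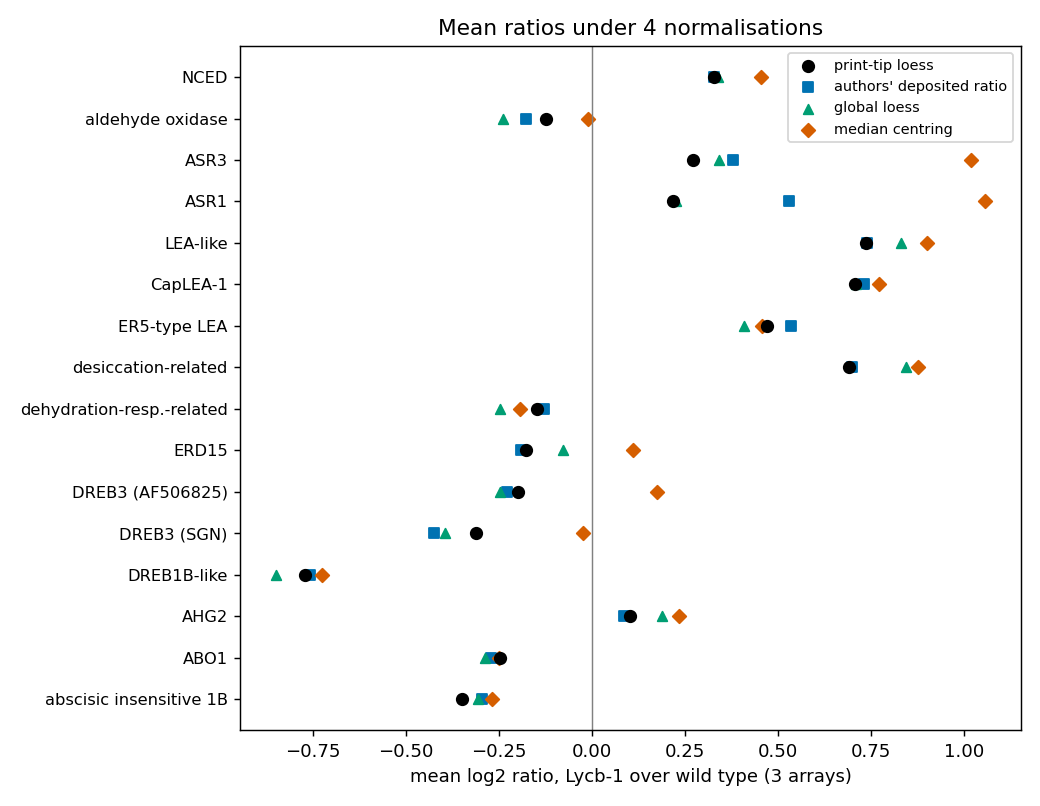
Mean log2 ratio of Lycb-1 over WT (x axis, 3 arrays) of the 16 tested probes (rows) under print-tip loess (black), the authors' own ratio (blue), a loess over the whole array (green) and median centring (orange). The first 3 lie close together except for ASR1, and median centring moves ASR1 and ASR3 to 1.06 and 1.02 and turns ERD15 and the AF506825 probe of DREB3 above 0.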

How the data were processed

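The authors deposited, for each of the 3 two-colour arrays, the background-subtracted intensity of each spot in Cy5 (Lycb-1) and Cy3 (WT), and the authors' ratio after print-tip lowess; the deposited series values are log2 of that ratio. Lists of checked and differentially expressed spots repeat these values, and the authors' selection of changed genes was not used. Non-positive intensities were dropped, and the ratios were normalised with print-tip loess (48 blocks, control spots at weight 0) in limma 3.58.1 (R 4.3.3). Spots of 1 probe were averaged. The mean log2 ratio of each probe was tested against 0 (lmFit, eBayes, two-sided), with Benjamini-Hochberg adjustment over 5720 probes. Signals per channel are Aquantile-normalised. For nptII, dim in WT on every array, the bound on the fold set that channel at the lowest signal among spots of at least 400 on its array, or at its own where higher. Precision is limited by the number of arrays. Samples were grouped by the genotype in the labels, and per the methods each pool mixed several fruits of separate plants. The p-values rest on the spread of the ratio between the 3 arrays, moderated over all tested probes. This spread does not separate differences between pools from noise of labelling and hybridisation. Members, roles and the wider list were chosen with earlier results of these data known. The genes named are all tested probes of a role with at most 8, each ASR and epoxycarotenoid probe, nptII and lycopene β-cyclase; untested probes, the ASR and DREB probes outside the list and those of the wider set were named after their values were seen. The reference gene table matched 0 of the probe names. The fitting procedure was tested on simulated data. Figures were drawn with matplotlib 3.10.9. Alternatives changed the normalisation, the limit on dim spots, the arrays, the test, the pairing of channels and the list.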

Additional observations from a re-analysis of the deposited data

How the results depend on the processing

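No ABA, ASR, LEA or dehydration probe passed an adjusted p of 0.05 under any alternative run. Over all probes, 3 passed; the count was 0 with the authors' ratio, without a limit on dim spots and with the methods' t-test, 9 with a global loess, 17 with median centring, 1 with both channels at 400 or more, 34 with each spot as its own feature, and 0 to 1 with 1 array left out. Each array pairs 1 Lycb-1 pool with 1 WT pool; with the channels unpaired (no replicate block) 8 of all probes passed, and 1 of the 16 had an unadjusted p under 0.05. That count, 2 in the fit reported, was also 4 with median centring, 1 with both channels at 400 or more, 1 with a limit of 800, 1 with an intensity trend, 0 with the methods' t-test, 0 without descriptions marked putative or like, and 1 to 3 with 1 array left out. Probes of the 16 higher on every array numbered 4 with median centring, where the share over all probes also moved, to 32.0%, 5 of 32 without a limit on dim spots, 1 with either stricter limit, 1 without putative or like names and 3 to 5 on any 2 arrays (28.6% to 30.3% of all probes); probes lower on every array numbered 2 with a global loess, 0 without putative or like names and 2 to 4 on any 2 arrays (31.4% to 31.9% of all probes). With median centring, the median of all tested probes moved to 0.15, that of the 16 to 0.20 and that of the wider set to 0.18, and AF506825 (0.17) and SGN-U213519 (0.11) changed sign. With 1 array left out, the median ran from -0.06 to 0.12 for the 16 and from -0.25 to -0.075 for the wider set, and signs changed for SGN-U213961 (-0.28 to 0.022), SGN-U213279 (-1.05 to 0.36), AF506825 (-0.81 to 0.52), U77719 (-0.44 to 1.83), SGN-U227770 (-0.56 to 0.048) and SGN-U228097 (-0.0079 to 0.24). The adjusted p of nptII and lycopene β-cyclase missed the threshold with the authors' ratio, without a limit on dim spots, with the methods' t-test and without replicate 1, and that of lycopene β-cyclase also without replicate 2 or 3; their directions held in each. Of 2 additions to the list chosen after seeing the data, the ASR1 and ASR4 probes moved no count by over 1.5 times, and the DREB probes spelled without a hyphen moved the number lower on every array to 2. The ASR1 and ASR4 probes moved the median of the list from -0.01 to 0.14. That median was also 0.13 without a limit on dim spots, 0.10 with 1 value per description and 0.06 with a global loess. It was -0.13 with either stricter limit and -0.12 without putative or like names. The causes of these differences were not tested. With 3 arrays, dim channels (below 400 on 1 array for 4 of the 16 probes) and a Cy5 scale whose top the ASR1 spot reached limit the ratios.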
